A study of Olea europaea with 6 samples.

Results

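On an array that carried 5543 olive expressed sequence tags (ESTs, short reads of cDNA clones that each stand for part of a transcript), 34 ESTs had more signal in mature November leaves than in juvenile July leaves in the "on" year and in the "off" year alike. The members were chosen from the leaf values themselves. An EST was taken if its mean log2 value was higher by at least 1 in mature than in juvenile leaves in each year and if its highest and lowest leaf array were at least 2 apart, and 4 ESTs, 3 of which met these conditions, were left out by name. A log2 difference of 1 is a 2-fold ratio of signal. All leaf differences of the members are therefore a description and carry no test, while the fruit arrays, which the choice did not use, were tested.

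The study compared leaves and fruits of the olive cultivar Ayvalık, a tree with strong alternate bearing, by a one-colour Cy3 oligonucleotide array designed on olive ESTs and on poplar gene models. Unripe fruit (UF) was sampled in July and ripe fruit (RF) in October from a fruiting tree. Juvenile leaves (OFF-J, ON-J) were taken in July and mature leaves (OFF-M, ON-M) in November, those of the on year from a fruiting tree and those of the off year from its neighbour without fruit. The 6 groups had 11 arrays in all, with 2 to a group and a single array for ON-M. Bearing year, calendar year and tree split the leaves in the same way and cannot be told apart, and neither can leaf age and season. The methods call the arrays of a group biological replicates, but the labels do not give more than 1 tree to a group, so that the p-values below measure only the spread between these samples.

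A young leaf imports sugar and builds cell walls and chloroplasts, and a mature leaf exports sugar and lays down defensive compounds. Starch made by day is broken down at night, largely to maltose, which leaves the chloroplast for sucrose synthesis. In Arabidopsis, salicylic acid takes part in systemic acquired resistance. Karrikins, growth regulators first found in smoke, act there through a receptor pathway that controls germination and seedling growth. The olive is evergreen and keeps its leaves over winter.

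The values are the authors' log2 signals after background subtraction, quantile normalization and summary by robust multichip average (RMA), and they were used as deposited. Over the olive ESTs the median was 9.83 and 10.22 in RF, 10.66 in ON-M and 10.80 to 11.43 on the other arrays. The olive median thus shifted by -1.01 from UF to RF, by 0.41 from OFF-J to OFF-M and by -0.66 from ON-J to ON-M, and the part of these shifts in the differences below was not tested beyond the centred values given beside them. Probes of random control sequence read 5.18 to 5.48. Of 6 olive ESTs annotated with photosynthesis or chlorophyll, 5 were above 8 on each OFF-J, OFF-M and ON-J array (medians 10.76 to 11.81). The number was 4 on the ON-M array (median 9.56), 4 on each UF array (medians 9.25 and 9.22) and 2 on each RF array (medians 6.27 and 6.20). The study listed these 6 ESTs for differences between these same leaf groups. Their leaf levels are therefore no independent measure of green tissue. In such tissue extracts, fewer cells of a type and less RNA per cell cannot be told apart.

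Of the 34 ESTs, 20 came from a cDNA library of leaves and fruits, 5 from fruitlets and 9 from flowers. These are 58.8%, 14.7% and 26.5% of the members, against 66.9%, 18.4% and 13.7% of all olive ESTs. In the annotation published with the study, which rests on similarity to genes of other species, 16 members had a biological process, 12 were listed as unknown and 6 were not listed. All 34 were read by 3 probes. The annotated members covered cell growth and transcription, starch and other carbohydrates, oxidation and reduction, protein breakdown, defense, the response to karrikin, isoprenoids, and the transport of nitrate and metals.

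All 3 mature leaf arrays were above all 4 juvenile ones for 34 of 34 members, a separation that the choice nearly fixed and that 13.7% of all olive ESTs and 5.5% of all probe sets showed as well. The gap between the lowest mature and the highest juvenile array ran from 0.71 to 2.52 (median 1.28). The off-year difference, OFF-M minus OFF-J, was 1.48 to 3.73 (median 2.53), beside a median of 0.11 over all olive ESTs. The on-year difference, ON-M minus ON-J, was 1.03 to 2.84 (median 1.497), beside a median of -0.20. Leaf arrays of a member spanned 2.01 to 4.22 (median 2.80), beside 0.92.

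**Figure D1:**
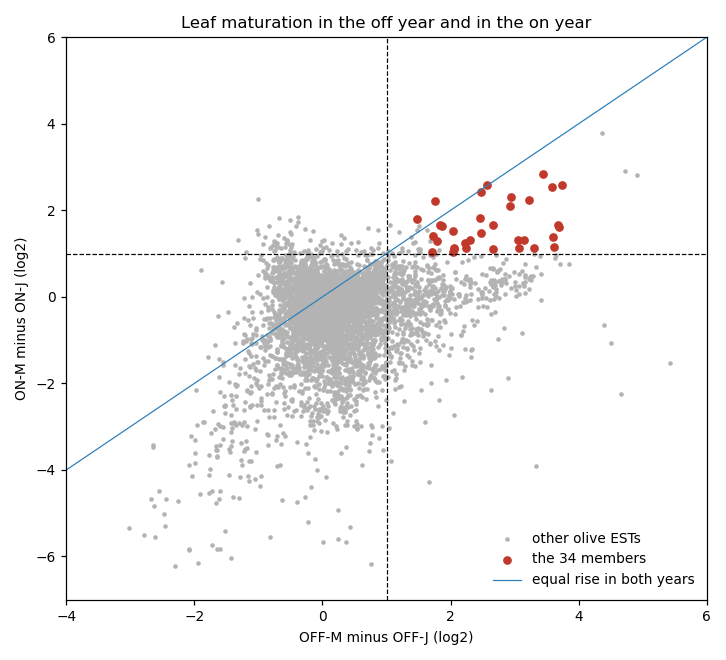
Off-year difference (OFF-M minus OFF-J, log2, x axis) against on-year difference (ON-M minus ON-J, log2, y axis) of the olive ESTs, with the 34 members as larger points, the thresholds of 1 as dashed lines and equal differences as a solid line. Of the 34 members, 31 lie below the solid line, and 11 do when each array is centred on its olive median.

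Among ESTs that met the other conditions, the on-year and leaf-range thresholds lay inside a continuous spread, and the off-year threshold did not. On the off-year side the members with the smallest differences were GO243290_1 (1.48), FL683952_1 (1.72) and GO246240_1 (1.73), and the next ESTs that met the other conditions, GO243788_1 (-0.38), GO243477_1 (-0.51) and GO244009_1 (-1.002), were lower in mature leaves. On the on-year side FN997722_1 and FL683952_1 (both 1.03) and GO242845_1 (1.11) were just inside, and GO244541_1, FN998323_1 and FN998669_1 (all 0.98) just outside. For the range, GO243290_1 (2.01), FL684175_1 (2.02) and GO245504_1 (2.04) were just inside and GO245670_1 (1.95), FL684375_1 and GO244935_1 (both 1.94) just outside. Without the condition on the range, 57 ESTs met the rule.

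The off-year difference was the larger in 31 of 34 members, by a median of 0.98, while 73.8% of all olive ESTs had the larger difference in the off year. With each array centred on its olive median this order turned for most members, and 11 of 34 (27.9% of all olive ESTs) had the larger difference in the off year. The 3 exceptions in the values as deposited were GO245268_1, annotated with starch breakdown, where the off-year difference was smaller by 0.44 (off minus on: -0.44), GO243290_1 (-0.33) and GO243444_1 (-0.01).

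The years were compared at each end of the interval, and in November their difference was near that of all olive ESTs. In July 31 of 34 members had the higher mean in ON-J (69.1% of all olive ESTs), and for 23 of them both ON-J arrays were above both OFF-J arrays (45.7% of all olive ESTs). The ON-J minus OFF-J difference was -0.12 to 1.07 (median 0.64, beside 0.18 over olive ESTs). In November the ON-M array was below both OFF-M arrays for 24 members (65.3% of all olive ESTs) and above both for 6 (20.5%). The ON-M minus OFF-M difference was -1.86 to 0.36 (median -0.23, beside -0.26 over olive ESTs). OFF-J was the lowest of the 6 groups in 22 of 34 members and in 15.0% of all olive ESTs, and OFF-M was the highest in 16 members and in 16.0%. The choice required OFF-M to be above OFF-J, so it fixed part of both counts. The other counts between the years also rest on leaf values that the choice used.

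**Figure D2:**
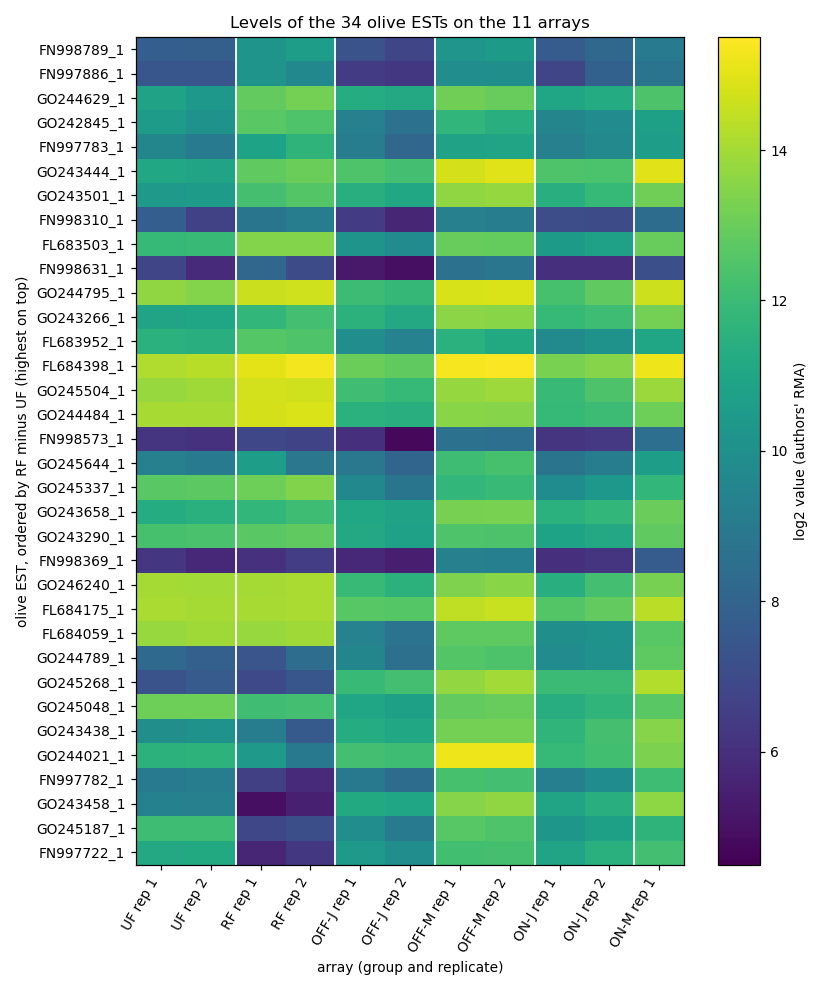
Log2 value of each of the 34 members (rows, ordered by RF minus UF with the highest on top) on each of the 11 arrays (columns, by group and replicate). Colours are to be compared along a row, since probe sets differ in brightness; the 3 mature leaf arrays are brighter than the 4 juvenile ones in every row, and the fruit columns split the rows.

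GO243458_1 and GO243438_1 carried the terms multidimensional cell growth, which is expansion of a cell in more than 1 direction, and regulation of transcription. GO243458_1 read 11.18 and 11.02 in OFF-J, 10.94 and 11.43 in ON-J, 13.49 and 13.65 in OFF-M and 13.61 in ON-M, so that juvenile and mature arrays were at least 2.06 apart and the ON-M array lay between the OFF-M arrays. Its off-year and on-year differences were 2.47 and 2.43. In fruit the same EST was lower than in any leaf, at 9.34 and 9.30 in UF and 4.94 and 5.48 in RF, and the RF mean of 5.21 was below the random control of those arrays (5.36 and 5.48). The size of the RF minus UF difference, -4.11 with a standard error of 0.27 (adjusted p = 1.92e-05 by limma), therefore depends on the background.

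GO243438_1, which was also annotated with the defense response to bacteria, protein autoubiquitination and the regulation of transport, read 11.29 and 11.04 in OFF-J, 11.72 and 12.24 in ON-J, 13.22 and 13.18 in OFF-M and 13.51 in ON-M. Both ON-J arrays were above both OFF-J arrays, and the ON-M array was above both OFF-M arrays. The differences were 2.04 in the off year and 1.53 in the on year. Fruit arrays were below all leaf arrays, at 9.93 and 10.13 in UF and 9.15 and 7.62 in RF. Its RF minus UF difference was -1.64 (standard error 0.44, adjusted p = 0.022), under the size required for a call. The value rested on which RF array was used, with -2.41 (called) without RF replicate 1 and -0.88 (not called) without RF replicate 2, and with olive-median centring it was -0.64 (adjusted p = 0.307).

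Among the members of carbohydrate metabolism, GO245268_1 was annotated with starch catabolism, maltose biosynthesis and the response to cold. The leaf arrays read 11.96 and 12.23 in OFF-J, 12.01 and 12.00 in ON-J, 13.74 and 13.98 in OFF-M and 14.21 in ON-M. The 4 July arrays nearly coincided, and the highest array of all was the single ON-M one. Off-year and on-year differences were 1.76 and 2.21. Fruit had far less of this signal, 7.30 and 7.65 in UF and 6.91 and 7.46 in RF, below every leaf array. RF minus UF was -0.29 (standard error 0.26, adjusted p = 0.415), and it was 0.71 when arrays were centred on their olive medians.

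The other 4 carbohydrate members, FN998789_1, FN997886_1, FN998310_1 and FN998631_1, had that process as their only term. They belonged to a block of 97 ESTs with the same annotation, 96 of them from the flower library. All 97 had an off-year difference of at least 1 (median 2.72). The study listed these ESTs for differences between these same leaf groups, so that the listing fixed this count at least in part. Of the 97, 4 had an on-year difference of at least 1 (range over the block -1.52 to 1.38, median 0.33), so that the on-year threshold alone set these 4 apart. FN998789_1 read 7.32 and 6.81 in OFF-J, 7.69 and 8.15 in ON-J, 10.25 and 10.47 in OFF-M and 9.05 in ON-M. ON-M took a middle place in this EST, higher than every July array and lower than both OFF-M arrays by more than 1. FN997886_1 had the same order, with 6.41 and 6.27 in OFF-J, 6.81 and 7.93 in ON-J, 9.89 and 10.00 in OFF-M and 8.75 in ON-M.

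FN998310_1 (off-year difference 3.15, on-year difference 1.31) and FN998631_1 (3.62 and 1.16) followed them. FN998631_1 read 5.24 and 4.94 in OFF-J, beside random controls of 5.25 on both arrays, so that the size of its off-year difference depends on the background. It was the only member with an OFF-J mean at or below the control. Over the 11 arrays the 4 ESTs correlated pairwise with r of 0.90 to 0.98 (Pearson, described without a test, as all share the same arrays and the choice fixed part of the pattern), beside a median of 0.64 over the 561 pairs of members. Whether they are reads of 1 transcript was not tested.

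Oxidation-reduction, a term for enzymes that move electrons between substrates, was the annotation of FL684059_1 and GO245337_1, and 1 of the terms of GO243501_1. FL684059_1 had the largest off-year difference of the 34. It read 9.38 and 8.69 in OFF-J, 9.96 and 10.10 in ON-J, 12.78 and 12.76 in OFF-M and 12.62 in ON-M. All 3 mature arrays nearly coincided, and the lowest was 2.52 above the highest juvenile array, which was the widest gap among the members. The fruit arrays were higher still and did not part by ripeness, with 13.80 and 13.93 in UF and 13.79 and 13.93 in RF (RF minus UF -0.01, standard error 0.26, adjusted p = 0.987). That difference was 1.00 with olive-median centring.

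GO245337_1 had the same order of leaf groups, with fruit above them. The juvenile arrays read 9.63 and 8.76 in OFF-J and 9.86 and 10.37 in ON-J, the mature ones 11.78 and 11.92 in OFF-M and 11.79 in ON-M, and the fruit arrays 12.69 and 12.72 in UF and 13.07 and 13.43 in RF. Both fruits were above all leaves, and RF was above UF by 0.54 (standard error 0.33, adjusted p = 0.227), which was not called. GO243501_1 carried a long list of terms, among them the transport of iron, copper and zinc, the response to iron starvation, cellulose synthesis and water transport. It went from 11.39 and 11.07 in OFF-J and 11.44 and 11.85 in ON-J to 13.67 and 13.75 in OFF-M and 13.11 in ON-M. In fruit it read 10.40 and 10.56 in UF and 12.26 and 12.57 in RF, between the juvenile and the mature leaves when ripe. RF minus UF was 1.93 (standard error 0.25, adjusted p = 0.000843), short of the size required.

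Protein breakdown was the annotation of GO244795_1 and 1 of the terms of FN997722_1. GO244795_1 read 12.02 and 11.83 in OFF-J, 12.28 and 12.80 in ON-J, 14.84 and 14.86 in OFF-M and 14.65 in ON-M, differences of 2.92 and 2.11. Ripe fruit, at 14.62 and 14.70, overlapped the mature leaves, and unripe fruit, at 13.67 and 13.47, stood between the leaf stages. RF was above UF by 1.10 (standard error 0.24, adjusted p = 0.00983), which did not reach the required size.

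FN997722_1 had the terms systemic acquired resistance, regulation of the hypersensitive response (a local cell death that stops a pathogen), receptor kinase signalling, membrane fusion and the development of stomata, stamen and endosperm. It read 10.45 and 9.90 in OFF-J, 10.91 and 11.46 in ON-J, 12.18 and 12.26 in OFF-M and 12.21 in ON-M. The mature arrays of the years coincided and the juvenile ones did not, since both ON-J arrays were above both OFF-J arrays, and the on-year difference of 1.03 was the smallest of all members. Unripe fruit, at 11.15 and 11.20, was in the range of the ON-J leaves. Ripe fruit read 5.69 and 6.27, not far above the random control of those arrays (5.36 and 5.48), so that the size of the RF minus UF difference, -5.20 (standard error 0.31, adjusted p = 1.07e-05), depends on the background.

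Defense was also the annotation of GO245644_1, with the terms alkaloid metabolism, systemic acquired resistance and salicylic acid signalling. It read 8.92 and 8.09 in OFF-J, 8.74 and 9.15 in ON-J, 12.09 and 12.29 in OFF-M and 10.61 in ON-M. The off-year difference was 3.68 and the on-year difference 1.66, and the ON-M array lay below both OFF-M arrays (ON-M minus OFF-M -1.58). The RF arrays were 10.65 and 8.86, 1 above and 1 below both UF arrays (9.30 and 9.02), and the difference of 0.60 (standard error 0.53, adjusted p = 0.41) became -0.30 without RF replicate 1.

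FN997782_1, annotated with the response to karrikin, had wide gaps between the stages in both years. It read 8.95 and 8.40 in OFF-J, 9.24 and 9.84 in ON-J, 12.32 and 12.22 in OFF-M and 12.07 in ON-M, differences of 3.59 and 2.53, with the lowest mature array 2.23 above the highest juvenile one. Unripe fruit (9.03 and 9.17) was at the level of juvenile leaves, and ripe fruit (6.58 and 5.81) was below every leaf array. RF minus UF was -2.90 (standard error 0.33, adjusted p = 0.000492 by limma). Ripe fruit was not far above the random control of those arrays (5.36 and 5.48), so that the size of this difference depends on the background. With olive-median centring the difference was -1.90 (adjusted p = 0.00234) and no longer reached the size required.

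GO244484_1, annotated with isoprenoid biosynthesis, the route to terpenes, sterols and the side chain of chlorophyll, read 11.53 and 11.41 in OFF-J, 11.86 and 12.06 in ON-J, 13.53 and 13.52 in OFF-M and 13.08 in ON-M. Fruit was above every leaf array, at 14.07 on both UF arrays and 14.80 and 14.86 in RF. Its RF minus UF difference of 0.76 (standard error 0.20, adjusted p = 0.0216) was not called. GO243658_1, with the terms nitrate transport, response to nitrate, glutamate metabolism, regulation of anion channels and root hair elongation, read 11.10 and 10.85 in OFF-J, 11.54 and 11.79 in ON-J, 13.25 and 13.30 in OFF-M and 12.98 in ON-M. Both fruits were nearer to the juvenile than to the mature leaves for this EST, with 11.32 and 11.47 in UF and 11.76 and 12.10 in RF.

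The 18 members without a described process included several with large leaf differences. GO244789_1 had the largest on-year difference, 2.84. It read 9.56 and 8.55 in OFF-J, 9.81 and 10.05 in ON-J, 12.57 and 12.44 in OFF-M and 12.77 in ON-M, and its fruit arrays, 8.25 and 7.87 in UF and 7.40 and 8.42 in RF, were all below the leaf arrays. GO243444_1 differed by 2.57 in the off year and by 2.58 in the on year, and no other member had a pair of differences so alike. It read 12.45 and 12.19 in OFF-J, 12.45 and 12.40 in ON-J, 14.81 and 14.98 in OFF-M and 15.00 in ON-M.

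GO244021_1 was the member with the widest split between the mature leaves of the years. It read 15.20 on both OFF-M arrays and 13.34 on the ON-M array, a difference of means of -1.86 (ON-M minus OFF-M), over July levels of 12.22 and 12.07 in OFF-J and 11.88 and 12.17 in ON-J. FN998369_1 and FN998573_1, from the flower library, were near the random control in July. FN998369_1 read 5.72 and 5.41 in OFF-J and 6.02 and 6.17 in ON-J, then 9.28 and 9.23 in OFF-M and 7.71 in ON-M. FN998573_1 read 5.96 and 4.73 in OFF-J and 6.21 and 6.31 in ON-J, then 8.63 and 8.51 in OFF-M and 8.51 in ON-M, and its second OFF-J array was below the control of 5.25. The other members without a process had off-year differences of 1.48 to 3.07 and on-year differences of 1.03 to 2.31.

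In fruit, which played no part in the choice, the members divided. A member was called when its Benjamini-Hochberg adjusted p, over all 54615 probe sets of the array, was under 0.05 and its log2 difference at least 2 (limma, two-sided, fitted over all 11 arrays). Of the 34, 4 were called higher in RF and 4 higher in UF, beside 3.73% and 17.3% of all olive ESTs and 3.3% and 3.46% of all probe sets. Without RF replicate 1 the counts were 7 and 6, and the methods' t-test called 4 and 4 before adjustment and 0 and 0 after it. The median RF minus UF difference was 0.63 (range -5.20 to 2.61), beside -0.11 over olive ESTs, and 24 of 34 members had the higher mean in RF, beside 46.4% of olive ESTs. At a size of at least 1, 13 were higher in RF and 6 in UF (15.3% and 28.3% of olive ESTs), and at the adjusted p alone 16 and 7 (20.8% and 31.8%). With each array centred on its olive median, 13 were higher in RF and 3 in UF (16.1% and 10.7%).

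**Figure D3:**
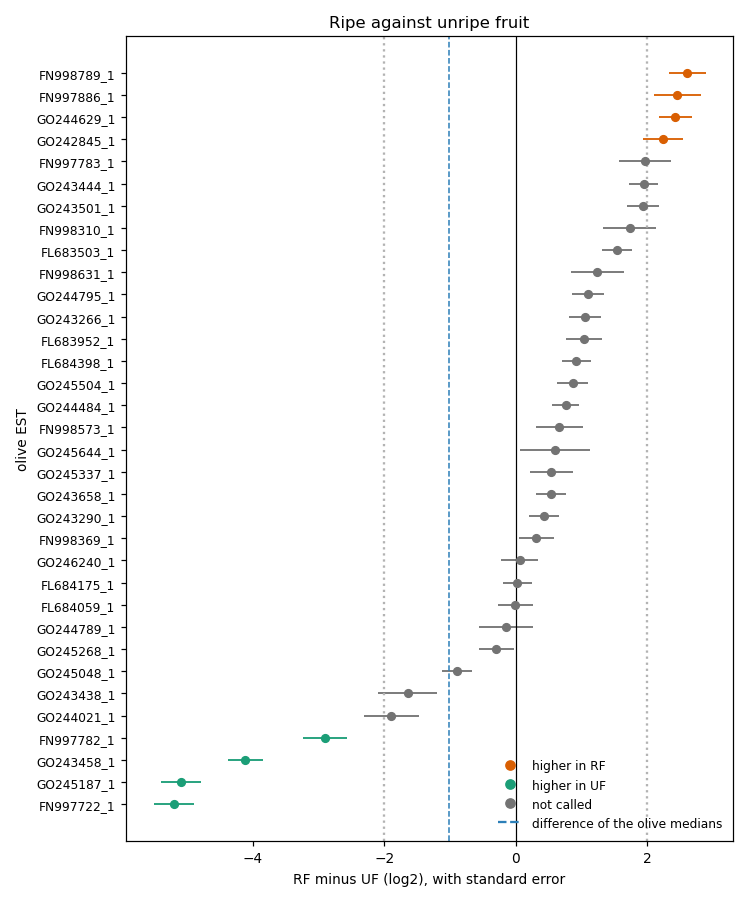
RF minus UF difference of each of the 34 members (x axis, log2; bars are the standard errors of the limma fit), with dotted lines at the size of 2 required for a call and a dashed line at the difference between the olive medians of the fruits. Coloured points are the 4 members called higher in RF and the 4 called higher in UF, and FN997782_1 is no longer called when arrays are centred on their olive medians.

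The 4 members higher in ripe fruit were FN998789_1 and FN997886_1 of the carbohydrate block, GO242845_1, listed as unknown, and GO244629_1, which the annotation did not list. FN998789_1 read 7.79 and 7.85 in UF and 10.21 and 10.63 in RF, higher by 2.61 in RF (standard error 0.28, adjusted p = 0.000352). FN997886_1 read 7.46 and 7.45 in UF and 10.19 and 9.63 in RF, higher by 2.45 (standard error 0.36, adjusted p = 0.00163). In both ESTs ripe fruit overlapped the off-year mature leaves, with means of 10.42 in RF and 10.36 in OFF-M for FN998789_1 and of 9.91 and 9.94 for FN997886_1. The on-year mature array, at 9.05 and 8.75, was below both RF arrays in each EST. The UF means of 7.82 and 7.45 were above those of OFF-J (7.06 and 6.34) and near those of ON-J (7.92 and 7.37). The other carbohydrate members differed by 1.73 (FN998310_1, standard error 0.40, adjusted p = 0.0122) and 1.24 (FN998631_1, standard error 0.41, adjusted p = 0.0446), under the required size.

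GO244629_1 read 10.84 and 10.38 in UF and 12.87 and 13.20 in RF (difference 2.42, standard error 0.25, adjusted p = 3e-04). Its leaves read 11.32 and 11.15 in OFF-J, 10.98 and 11.26 in ON-J, 13.10 and 12.94 in OFF-M and 12.42 in ON-M, so that ripe fruit and off-year mature leaves overlapped. GO242845_1 read 10.59 and 10.11 in UF and 12.69 and 12.49 in RF (difference 2.24, standard error 0.30, adjusted p = 0.00111). Ripe fruit was above every leaf array in this EST, with 9.28 and 8.59 in OFF-J, 9.51 and 9.81 in ON-J, 11.75 and 11.46 in OFF-M and 10.77 in ON-M. FN997783_1 (1.97) and GO243444_1 (1.95) were the next below the size required, with adjusted p values of 0.0068 and 0.00042.

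**Figure D4:**
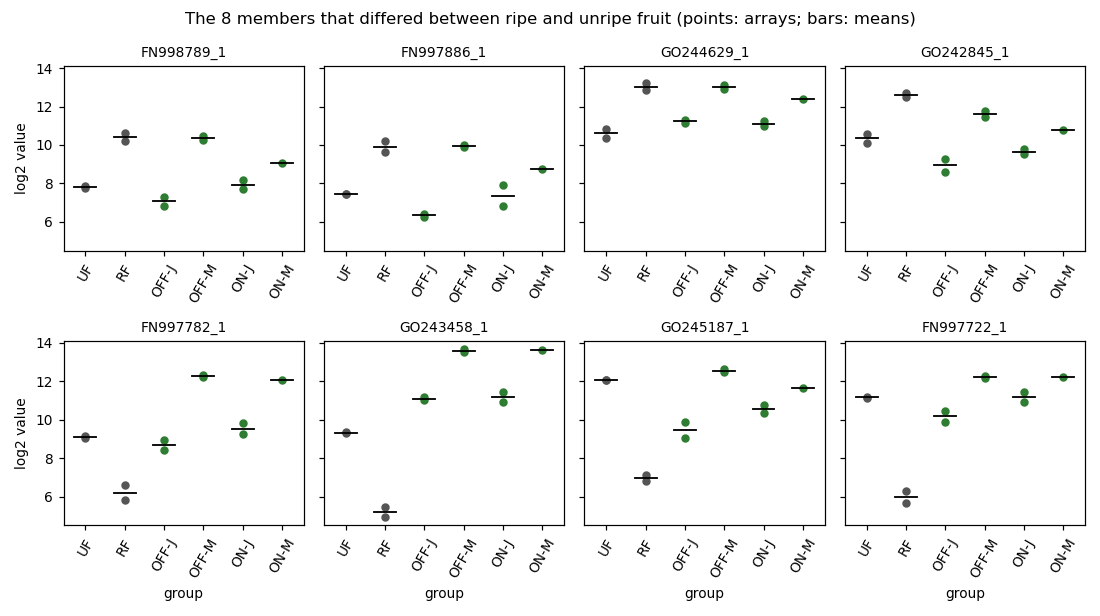
Log2 values of the 8 members called between ripe and unripe fruit, by group (points are arrays and bars are group means; ON-M has 1 array). In the top row ripe fruit is above unripe fruit and November leaves are above July leaves; in the bottom row ripe fruit is the lowest group although November leaves are above July leaves.

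The 4 members higher in unripe fruit were FN997722_1, FN997782_1 and GO243458_1, described above, and GO245187_1, listed as unknown. GO245187_1 read 12.06 and 12.08 in UF and 6.83 and 7.13 in RF, an RF minus UF difference of -5.09 (standard error 0.31, adjusted p = 1.19e-05). Its leaf arrays were at 9.89 and 9.07 in OFF-J, 10.33 and 10.76 in ON-J, 12.63 and 12.47 in OFF-M and 11.67 in ON-M, and unripe fruit was thus within the range of mature leaves. In all 4 both RF arrays were below all 7 leaf arrays, which was also so for GO243438_1, GO244021_1, GO244789_1 and GO245268_1, in all 8 of 34 members and 36.0% of olive ESTs. The choice used the leaf side of this comparison, so the share is no fair baseline for it. GO244021_1 read 11.58 and 11.61 in UF and 10.45 and 8.96 in RF, a difference of -1.89 (standard error 0.42, adjusted p = 0.00981), under the required size. Its difference was -2.64 (called) without RF replicate 1, -1.14 without RF replicate 2 and -0.88 (adjusted p = 0.153) with olive-median centring.

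Set against leaves of their own season, the fruits differed from member to member. UF was above both July leaf groups in 18 members (36.7% of olive ESTs) and below both in 9 (42.8%). RF was above both November leaf groups in 11 members (39.9% of olive ESTs) and below both in 18 (48.0%). These are orders of group means without a test, between organs that were sampled in October and November in the second case. Ripe fruit was the highest of the 6 groups in 10 members (31.8% of olive ESTs), among them GO244484_1 of isoprenoid synthesis and GO245337_1 of oxidation-reduction, and unripe fruit in 2 (15.2%), FL684059_1 and GO245048_1. The RF minus UF difference of GO245048_1, -0.89 (standard error 0.22, adjusted p = 0.016), was 0.12 (adjusted p = 0.71) with olive-median centring. The highest group was a leaf group in the other 22 members (53.1% of olive ESTs). The choice took ESTs that were lower in July leaves and higher in November leaves. It therefore fixed part of each of these orders of fruit against leaf. The shares over all olive ESTs are no fair baseline for them, and nothing is read from the counts.

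Other olive ESTs with the members' annotations, taken by words in the published terms, gave a setting for the fruit calls. The study listed these ESTs for their differences in these same samples, so the counts are no independent evidence of a direction. Over all olive ESTs the shares called were 3.73% higher in RF and 17.3% higher in UF. Of 102 carbohydrate ESTs 61 were higher in RF and 4 in UF (median difference 2.19), and 2 of the 4 members among them were called. Most of the 102 were the block of 97 ESTs described above, 96 of them from the flower library. How many transcripts that block stands for was not tested. Of 50 ESTs of oxidation-reduction 2 were higher in RF and 28 in UF (median -2.80), and none of the 3 members was called. Of 31 ESTs of defense and acquired resistance none was higher in RF and 16 were higher in UF (median -2.01), 1 of the 3 members among them. With olive-median centring these counts were 95 and 2 for carbohydrates, 7 and 23 for oxidation-reduction, and 6 and 8 for defense. The shares over all olive ESTs were then 16.1% higher in RF and 10.7% higher in UF.

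The shorter lists each held 1 or 2 members. The 10 karrikin ESTs had 1 higher in RF and 6 in UF, FN997782_1 among the latter, and the 13 of proteolysis had 1 and 5, with FN997722_1 among the 5. Of 8 ESTs of transcription regulation and of 9 of cell growth, none was called higher in RF and 4 each were higher in UF, and GO243458_1 was among the 4 in both. Starch and maltose had 4 ESTs, 3 of them higher in UF, and GO245268_1 was the one not called. Of 12 ESTs of the cold response, none was called higher in RF and 4 were higher in UF, counts that turned to 5 and 2 with olive-median centring. With that centring the counts were 1 and 4 for karrikin, where FN997782_1 was no longer called, and 3 and 5 for proteolysis. They were 1 and 3 for transcription regulation, 0 and 4 for cell growth, and 0 and 2 for starch and maltose. At an unadjusted limma p under 0.05 and any size, the ESTs higher in RF were 6 for defense, 1 for transcription, 0 for cell growth, 0 for starch and 5 for cold. Those higher in UF were 23, 5, 6, 3 and 5 in the same order. At the same threshold the karrikin ESTs had 1 higher in RF and 9 in UF, and those of proteolysis 4 and 6. No share over all olive ESTs was taken there. At the adjusted p alone, which is stricter, 20.8% of all olive ESTs were higher in RF and 31.8% in UF, so nothing is read from these counts.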

How the data were processed

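Total RNA of olive leaves and fruits was labelled with Cy3 and hybridized to a NimbleGen array with 54616 probe sets, and the authors deposited log2 values per array, made in DEVA by background subtraction, quantile normalization and RMA, with the 2 or 3 spots of each transcript averaged. The version of RMA is not given in the sources used here. These values were used without further normalization. A deposited table of log2 means per sample equalled the array means, and a column of standard errors was not used. Without the random control set, 54615 probe sets were tested (5543 olive, 49072 poplar).

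Groups came from the sample labels. The members and the annotation lists were chosen with earlier results of these data known. Ripe and unripe fruit were compared by the R 4.3.3 package limma 3.58.1, with a mean for each group over all 11 arrays, 5 residual degrees of freedom and Benjamini-Hochberg adjustment. The fit was tested on simulated data. ON-M, with its single array, was assumed to share the spread of the other groups. Named in the text were the members with an annotated process, the 5 with the largest difference in each year and in each direction between the fruits, and the 3 ESTs nearest to each threshold on either side. FL684398_1, FN998573_1 and GO245048_1 were named after their values were seen. Process names are those published with the study. An annotated olive gene table of RefSeq matched 0 of the 34, and no sequences were used here. Python 3.11.15 with pandas 2.3.3, numpy 2.4.6 and matplotlib 3.10.9 served for the rest. The alternatives were the methods' t-test, the fruit arrays alone, an intensity-dependent robust prior, other size thresholds, a mean log2 value of at least 6, olive probe sets only, centring on all or olive medians, a second quantile normalization, the replicate number as a block, and leaving out each array in turn. The number of arrays limits the precision, and a second ON-M array was not analysed here.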

Additional observations from a re-analysis of the deposited data

How the results depend on the processing

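The 4 members higher in RF and the 4 higher in UF were also 4 and 4 with the fruit arrays alone, the robust prior, the filter on low values, olive probe sets only and centring on all probe sets, and by the methods' t-test without adjustment. With replicate number as a block they were 4 and 4 as well. The deviations of same-numbered arrays correlated with -0.05 to 0.15 over 10 pairs of groups. The labels do not give the trees behind the numbers, so this check cannot decide whether the samples were paired. The methods' t-test after adjustment called 0 and 0. Counts higher in RF were 13 with a size of 1, 16 with the adjusted p alone, 13 with olive-median centring and 7 with quantile normalization repeated, and 4 to 7 with 1 array left out (7 without RF replicate 1). Counts higher in UF were 7 with the adjusted p alone, 3 with olive-median centring and 4 to 6 with 1 array left out (6 without RF replicate 1). The choice itself found 87 ESTs with olive-median centring (31 of the 34 among them), 57 from the averaged table or without the range condition, 31 with centring on all probe sets, 37 with quantile normalization repeated (32 of the 34), and 23 to 48 with 1 leaf array left out, the extremes being those without ON-J replicate 1 and without ON-J replicate 2. RF minus UF changed sign with olive-median centring for FL684059_1 (1.00), GO244789_1 (0.86), GO245268_1 (0.71) and GO245048_1 (0.12), and with centring on all probe sets for FL684175_1 (-0.0185). With 1 fruit array left out it ranged through 0 for FL684059_1 (-0.0795 to 0.066), FL684175_1 (-0.037 to 0.087), GO244789_1 (-0.66 to 0.36) and GO245644_1 (-0.30 to 1.49), and none of these 6 was called at the required size, though GO245048_1 had an adjusted p of 0.016 before centring. The cause was not tested.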

Other observations

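Some members ran closely together over all 11 arrays, leaves and fruits alike. FL684398_1 and GO244795_1 correlated with r of 0.996 (Pearson), FL684059_1 and GO245337_1, both of oxidation-reduction, with 0.986, and GO244484_1 and GO245337_1 with 0.983. The median over the 561 pairs was 0.64. These pairs were picked after their values were seen, the choice of members fixed the leaf part of the pattern, and the arrays are shared, so that the values are a description. FL684398_1, a fruitlet EST listed as unknown, read 13.03 and 12.83 in OFF-J, 13.28 and 13.50 in ON-J, 15.35 and 15.44 in OFF-M, 15.20 in ON-M, 14.20 and 14.31 in UF and 15.05 and 15.30 in RF. Like GO244795_1 it thus had mature leaves and ripe fruit near 1 level, unripe fruit below them and juvenile leaves lowest. The RF mean was just below ON-M in FL684398_1 (15.18 and 15.20) and just above it in GO244795_1 (14.66 and 14.65).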
